A study of Mus musculus with 11 samples.

Results

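Stomach and intestine genes were followed in thymic epithelial cells of NOD mice that carried 0, 1 or 2 copies of the R249C variant of Aire. The set comprised 30 mouse genes of the gastric and intestinal epithelium, chosen by symbol, and 29 of them had a row among the 56691 genes of the count table. Muc6 was not analysed here, and Cblif, gastric intrinsic factor, was found under its older symbol Gif. The 29 members covered enterocyte lipid handling (3 genes), brush border enzymes and structure (6), transport and adhesion (3), antimicrobial proteins (4), mucins, trefoil factors and gastrokines (7), acid secretion and intrinsic factor (3) and gut transcription factors (3).

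The study sequenced RNA of EpCAM-positive, CD45-negative thymic cells, sorted after magnetic depletion of CD45-expressing cells, from NOD mice aged 4 to 8 weeks. NOD is a strain prone to autoimmune diabetes, and it was the background of all 3 genotypes: Aire WT/WT (3 libraries), Aire WT/R249C (5) and Aire R249C/R249C (3). R249C is a missense change in the SAND domain of Aire. The labels give a batch for each library. Batch A held WT/WT 1, WT/R249C 1 to 3 and R249C/R249C 1 to 3, and batch B held WT/WT 2 and 3 and WT/R249C 4 and 5. The labels contradict each other for WT/R249C 4 and 5, whose titles read WT/R249C while the genotype field has R249C/R249C, and the title was followed here. The titles call the libraries biological replicates without saying how many mice each holds, so p-values measure the spread between libraries.

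Medullary thymic epithelial cells transcribe many genes of peripheral tissues and present the products to developing T cells, which removes or diverts cells that react to them. Aire, a chromatin-associated regulator, drives much of this ectopic transcription. Some medullary cells also take on programs of peripheral cell types, including gut-like enterohepatic, microfold and tuft programs, with the lineage factors of those types, such as HNF4 proteins for enterohepatic cells. A bulk library averages over all of these, so fewer cells of a type and less RNA per cell cannot be told apart.

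Library totals ran from 60560348 to 182319976 counts, and levels are given as CPM, each count divided by the total of its library and rescaled to a library total of 1000000. The epithelial markers Epcam, Krt5, Krt8, Krt14, Cdh1 and Foxn1 had a count in every library and summed to between 2517 and 5039 CPM. Aire mRNA ran from 174 CPM in WT/R249C 2 to 858 CPM in R249C/R249C 3. Pairwise correlations of log CPM between the 11 libraries ran from 0.62 to 0.89 with a median of 0.76. Summed B cell markers, of which Igkc made up the most in WT/WT, were 869 to 2050 CPM in WT/WT, 131 to 397 CPM in WT/R249C and 310 to 464 CPM in R249C/R249C, so every mutant library lay below every WT/WT library. That separation rested on Igkc: without it the sums of the other B cell markers were 110 to 188 CPM in WT/WT, 58.6 to 154 CPM in WT/R249C and 73.4 to 144 CPM in R249C/R249C, and overlapped. Of the defining B cell genes, Ms4a1 had a count in 5 libraries and was at most 5.18 CPM, Pax5 had one in 10, and Cd79b was at 1.96 to 43.2 CPM and Blnk at 38.9 to 117 CPM in all 11.

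Promoter sequence is shown for members that the results below turn on: Reg3g and Reg3b, paralogs that differed widely in level, Sis, whose counts came mainly from a single library, and Atp4a, whose mutant libraries all lay below WT/WT. Each line gives the 250 bases before the transcription start, 5′ to 3′ on the gene's strand, from RefSeq (GRCm38.p6). Capitals mark matches on either strand to TTTATNG, letters bound by CDX factors.
Reg3g (chr6:78468875-78469124, minus strand): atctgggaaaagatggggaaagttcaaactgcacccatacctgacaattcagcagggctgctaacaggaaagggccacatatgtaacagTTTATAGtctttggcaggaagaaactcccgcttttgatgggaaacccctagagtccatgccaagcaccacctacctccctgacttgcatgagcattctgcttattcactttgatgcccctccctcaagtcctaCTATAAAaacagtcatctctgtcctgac
Reg3b (chr6:78370635-78370884, plus strand): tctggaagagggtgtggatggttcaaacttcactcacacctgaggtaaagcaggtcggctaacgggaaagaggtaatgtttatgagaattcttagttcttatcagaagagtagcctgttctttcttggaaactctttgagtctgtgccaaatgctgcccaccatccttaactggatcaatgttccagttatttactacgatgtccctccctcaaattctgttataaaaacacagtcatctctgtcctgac
Sis (chr3:72967864-72968113, minus strand): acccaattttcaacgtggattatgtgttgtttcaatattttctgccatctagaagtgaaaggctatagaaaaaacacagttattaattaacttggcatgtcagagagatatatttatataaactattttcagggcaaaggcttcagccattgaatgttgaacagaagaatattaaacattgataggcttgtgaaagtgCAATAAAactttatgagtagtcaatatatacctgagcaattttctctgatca
Atp4a (chr7:30711959-30712208, plus strand): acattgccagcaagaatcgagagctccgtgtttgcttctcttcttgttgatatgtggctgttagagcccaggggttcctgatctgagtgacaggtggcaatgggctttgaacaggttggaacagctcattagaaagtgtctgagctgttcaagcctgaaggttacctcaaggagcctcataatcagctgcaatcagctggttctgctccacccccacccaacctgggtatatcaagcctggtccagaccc
The Reg3g window held 2 CDX matches, which begin 161 and 28 bases before the start, and the nearer of them overlaps the letters TATAAA. The aligned Reg3b window had the same base as Reg3g at 173 of 250 positions (69.2%) and no CDX match, although it too held TATAAA, beginning 29 bases before the start. The Sis window held 1 CDX match at 52 bases before the start, and the Atp4a window held none. Over 22 member promoters from 21 genes, TTTATNG occurred in 5 (22.7%; Alpi, Fabp1, Fabp2, Reg3g and Sis) against 9.81% of 32851 mouse promoters of the same length. The HNF4 letters CAAAGTCCA occurred in 1, Alpi (4.55%), against 0.384%. These are descriptions of letters, and an absent match says only that the letters are not in this window.

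The member levels spanned a wide range. Of the 29 members, 9 averaged 10 CPM or more over the 11 libraries and 5 averaged under 1 CPM. Cdx1, Reg3g, Anpep and Lyz1 together made up 76.9% of the summed member CPM. A total of 11 members had a count in every library, as did 41.6% of all genes with any count, and 8 stayed at 1 CPM or more in every library. Members with a count numbered 20, 22 and 28 in the WT/WT libraries, 28, 23, 17, 29 and 24 in WT/R249C 1 to 5, and 23, 23 and 21 in R249C/R249C. The fewest were in WT/R249C 3, which was also the smallest library. Thinning every library to its total of 60560348 counts left the numbers at 17 to 29. WT/R249C 3 also had the fewest genes with a count over the whole table, 22101. The most genes were in WT/R249C 1 (31180) and WT/WT 3 (30826), which held 28 members each, while WT/R249C 5 had 23073 genes and 24 members. The 3 genotypes overlapped in the number of members with a count. They also overlapped in summed member CPM, which was 581 to 1108 in WT/WT, 274 to 870 in WT/R249C and 411 to 829 in R249C/R249C. The plot of levels by gene shows the range and the overlap of the genotypes.

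**Figure D1:**
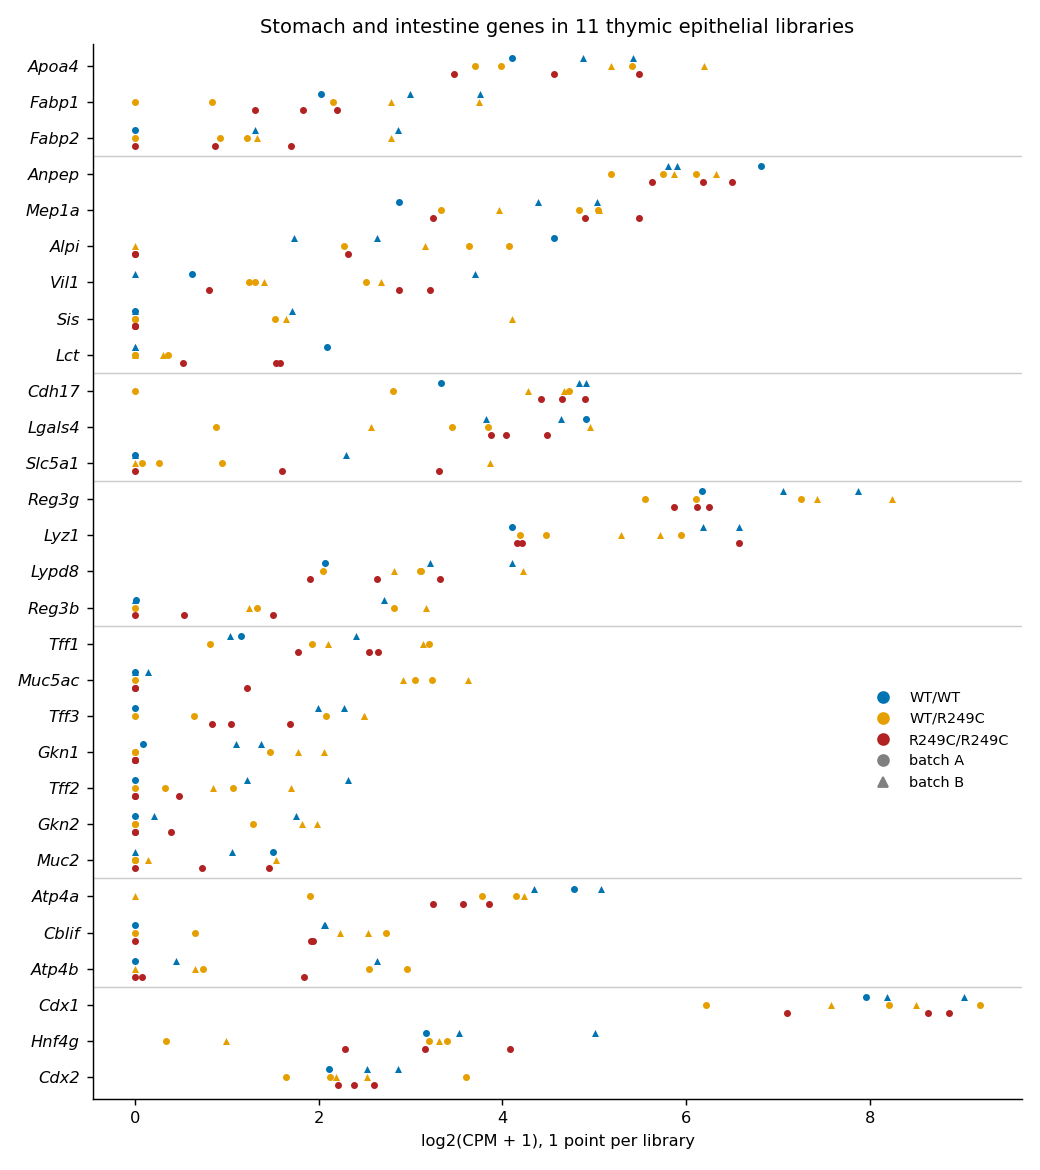
Level of each of the 29 members in each library, as log2(CPM + 1) on the horizontal axis, with genes grouped by role, 1 point per library, color for genotype and marker shape for batch. Cdx1 lies highest, many members have libraries at 0, and the 3 genotypes overlap for nearly every gene.

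Among the gut transcription factors, Cdx1 was abundant and Cdx2 was not. Both are caudal-type homeobox factors, and Cdx2 is the one required for intestinal identity. Per kilobase of exon, Cdx1 averaged 185 CPM and Cdx2 2.10 CPM, and Cdx1 had a higher mean CPM than 99.1% of the 40154 genes with a count. Cdx1 was at 247, 290 and 521 CPM in WT/WT, at 296, 73.3, 588, 361 and 190 CPM in WT/R249C, and at 465, 136 and 398 CPM in R249C/R249C. Its lowest library was WT/R249C 2 and its highest WT/R249C 3, so the range within 1 genotype held all others. Cdx2 lay between 2.13 and 6.28 CPM in 10 libraries and at 11.2 CPM in WT/R249C 3. Hnf4g, a nuclear receptor of the enterocyte program, was at 8.01, 31.2 and 10.5 CPM in WT/WT, at 8.17, 9.57, 0.264, 8.95 and 0.987 CPM in WT/R249C, and at 7.95, 16.0 and 3.89 CPM in R249C/R249C. WT/WT 2 stood highest for Hnf4g and the other libraries of the 3 genotypes were interleaved. Batch-adjusted log2 fold changes against WT/WT were 0.08 (95% interval -1.81 to 1.97) in R249C/R249C and -0.18 (-1.68 to 1.32) in WT/R249C for Cdx1.

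The antimicrobial proteins were led by Reg3g, a C-type lectin secreted against Gram-positive bacteria. Reg3g was at 71.0, 132 and 232 CPM in WT/WT, at 151, 45.8, 68.0, 171 and 301 CPM in WT/R249C, and at 57.7, 68.3 and 74.8 CPM in R249C/R249C. The R249C/R249C libraries lay close together at the low end. Also of batch A, WT/WT 1 and WT/R249C 2 and 3 lay among or below them, and WT/R249C 1 lay above them at 151 CPM. The batch-adjusted log2 fold change of Reg3g was -0.04 (95% interval -1.17 to 1.10) in R249C/R249C and 0.36 (-0.55 to 1.27) in WT/R249C. Reg3b, the paralog, had no count in WT/WT 2, WT/R249C 3 and R249C/R249C 3 and reached 8.02 CPM in WT/R249C 5. Per kilobase of exon, Reg3g averaged 59.1 CPM and Reg3b 1.97 CPM. Lyz1, the lysozyme of Paneth cells, was at 16.3, 94.1 and 71.6 CPM in WT/WT, at 60.5, 17.3, 21.2, 38.3 and 51.6 CPM in WT/R249C, and at 17.5, 16.9 and 94.5 CPM in R249C/R249C. Each genotype thus held libraries near 17 CPM or above 50 CPM, and the genotypes overlapped. Lyz1 shares 34.2% of its 31-base words with Lyz2, the lysozyme of myeloid cells, so its counts are uncertain. Lyz2 was at 64.1, 194 and 262 CPM in WT/WT, at 184, 49.5, 51.6, 168 and 233 CPM in WT/R249C, and at 113, 52.8 and 222 CPM in R249C/R249C, and the 5 lowest libraries of Lyz1 were also the 5 lowest of Lyz2. The part of Lyz2 in the Lyz1 counts was not tested. Lypd8, which keeps flagellated bacteria away from the colonic epithelium, had a count in every library, from 2.75 to 17.6 CPM.

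The fatty acid and lipoprotein genes of enterocytes were present at lower levels. Apoa4, the apolipoprotein secreted with chylomicrons, was at 16.2, 28.5 and 41.9 CPM in WT/WT, at 41.5, 12.0, 14.9, 35.4 and 72.3 CPM in WT/R249C, and at 22.7, 10.1 and 44.0 CPM in R249C/R249C. All 3 genotypes overlapped between 16.2 and 41.9 CPM. Fabp1, a fatty acid-binding protein of liver and intestine, was at 3.09, 12.6 and 6.97 CPM in WT/WT, at 3.45, 0.785, 0, 5.90 and 12.4 CPM in WT/R249C, and at 1.48, 2.56 and 3.60 CPM in R249C/R249C. Fabp2, the intestinal paralog, had no count in WT/WT 1, WT/R249C 3 and R249C/R249C 1 and its highest values in WT/WT 2 (6.31 CPM) and WT/R249C 5 (5.88 CPM). For both binding proteins the high libraries were of batch B, and the genotypes overlapped.

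Brush border genes comprised well-expressed peptidases and scarce disaccharidases. Anpep, aminopeptidase N, was the most even of all members, at 112, 58.7 and 54.7 CPM in WT/WT, at 35.5, 68.1, 52.8, 79.4 and 57.4 CPM in WT/R249C, and at 48.4, 71.5 and 89.5 CPM in R249C/R249C. The genotypes overlapped from 54.7 to 79.4 CPM, and Anpep is also made outside the gut, in myeloid and stromal cells. Mep1a, the alpha subunit of the protease meprin, was at 6.32, 19.9 and 31.8 CPM in WT/WT, at 31.8, 9.09, 27.6, 32.1 and 14.7 CPM in WT/R249C, and at 43.9, 8.51 and 29.0 CPM in R249C/R249C. WT/WT 1, WT/R249C 2 and R249C/R249C 2, 1 library of each genotype, were the lowest. Alpi, intestinal alkaline phosphatase, was at 22.6, 5.20 and 2.32 CPM in WT/WT, at 11.4, 3.85, 15.8, 7.95 and 0 CPM in WT/R249C, and at 0, 3.99 and 0 CPM in R249C/R249C. Sis, sucrase-isomaltase, was at 0, 0 and 2.27 CPM in WT/WT, at 1.88, 0, 0, 2.14 and 16.2 CPM in WT/R249C, and at 0 in all 3 R249C/R249C libraries, so WT/R249C 5 alone held 72.0% of its summed CPM. Lct, lactase, was at 3.27, 0 and 0 CPM in WT/WT, at 0.281, 0, 0, 0.232 and 0 CPM in WT/R249C, and at 0.436, 1.99 and 1.90 CPM in R249C/R249C. Vil1, the actin bundler villin, ran from 0 in WT/WT 2 to 12.1 CPM in WT/WT 3, and that range of 1 genotype contained the other libraries. Alpi shares 7.07% of its 31-base words with other genes, most with the phosphatase gene Akp3.

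Of the transport and adhesion genes, Cdh17, the intestinal LI-cadherin, was at 9.08, 29.1 and 27.6 CPM in WT/WT, at 25.5, 6.03, 0, 18.4 and 24.5 CPM in WT/R249C, and at 24.1, 20.4 and 28.9 CPM in R249C/R249C. Only WT/WT 1 and WT/R249C 2 and 3 lay under 18.4 CPM, and WT/R249C 3 had no count. Lgals4, a galectin of the intestinal epithelium, was at 29.2, 24.0 and 13.1 CPM in WT/WT, at 9.92, 13.4, 0.842, 30.1 and 4.94 CPM in WT/R249C, and at 13.7, 15.5 and 21.4 CPM in R249C/R249C. Slc5a1, the sodium-glucose cotransporter SGLT1, was at 0, 0 and 3.93 CPM in WT/WT, at 0.928, 0.0591, 0.198, 13.5 and 0 CPM in WT/R249C, and at 2.05, 0 and 8.93 CPM in R249C/R249C, with at least 1 library at 0 in each genotype.

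Mucins, trefoil factors and gastrokines were scarce, summing to 1.58 to 27.8 CPM per library over 7 genes. Tff1, a gastric trefoil peptide, was the member of this role with the highest mean and the only one with a count in every library, at 1.22, 1.05 and 4.31 CPM in WT/WT, at 8.23, 0.768, 2.81, 7.78 and 3.31 CPM in WT/R249C, and at 2.43, 5.28 and 4.84 CPM in R249C/R249C. Muc5ac, the surface mucin of the stomach, was at 0, 0 and 0.104 CPM in WT/WT, at 7.29, 0, 8.44, 6.56 and 11.4 CPM in WT/R249C, and at 1.33, 0 and 0 CPM in R249C/R249C. Muc5ac thus stood above 6 CPM in 4 of 5 WT/R249C libraries, and at or under 1.33 CPM everywhere else. Of these 4, WT/R249C 4 and 5 are the libraries with contested labels. Muc2, the goblet cell mucin, was at 1.85, 0 and 1.08 CPM in WT/WT, at 0, 0, 0, 1.90 and 0.108 CPM in WT/R249C, and at 0, 0.657 and 1.75 CPM in R249C/R249C, with a library at 0 in each genotype. Tff2 and Tff3, trefoil peptides of the stomach neck cells and of goblet cells, stayed at or under 3.98 and 4.65 CPM. The gastrokine Gkn1, a secreted gastric surface protein, was at 0.0663, 1.15 and 1.59 CPM in WT/WT, at 1.77, 0, 0, 3.17 and 2.43 CPM in WT/R249C, and at 0 in all R249C/R249C libraries. Gkn2, its partner gene, had a count in 6 libraries and at most 2.94 CPM.

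Acid secretion was represented by both subunits of the gastric proton pump, at unequal levels. Per kilobase of exon, the catalytic subunit Atp4a averaged 3.90 CPM and the beta subunit Atp4b 1.27 CPM. Atp4a was at 26.6, 19.4 and 32.7 CPM in WT/WT, at 12.7, 2.75, 16.7, 17.8 and 0 CPM in WT/R249C, and at 13.4, 10.9 and 8.49 CPM in R249C/R249C. All 8 mutant libraries lay below all 3 WT/WT libraries, whichever genotype WT/R249C 4 and 5 carried. Atp4b was at 0, 0.365 and 5.21 CPM in WT/WT, at 4.85, 0.667, 6.80, 0.573 and 0 CPM in WT/R249C, and at 0, 2.58 and 0.0544 CPM in R249C/R249C, and its genotypes overlapped. Cblif, the carrier of vitamin B12 made by the stomach, was at 0, 3.18 and 3.21 CPM in WT/WT, at 5.63, 0.574, 0, 3.69 and 4.82 CPM in WT/R249C, and at 2.85, 2.76 and 0 CPM in R249C/R249C, with a library at 0 in each genotype.

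**Figure D2:**
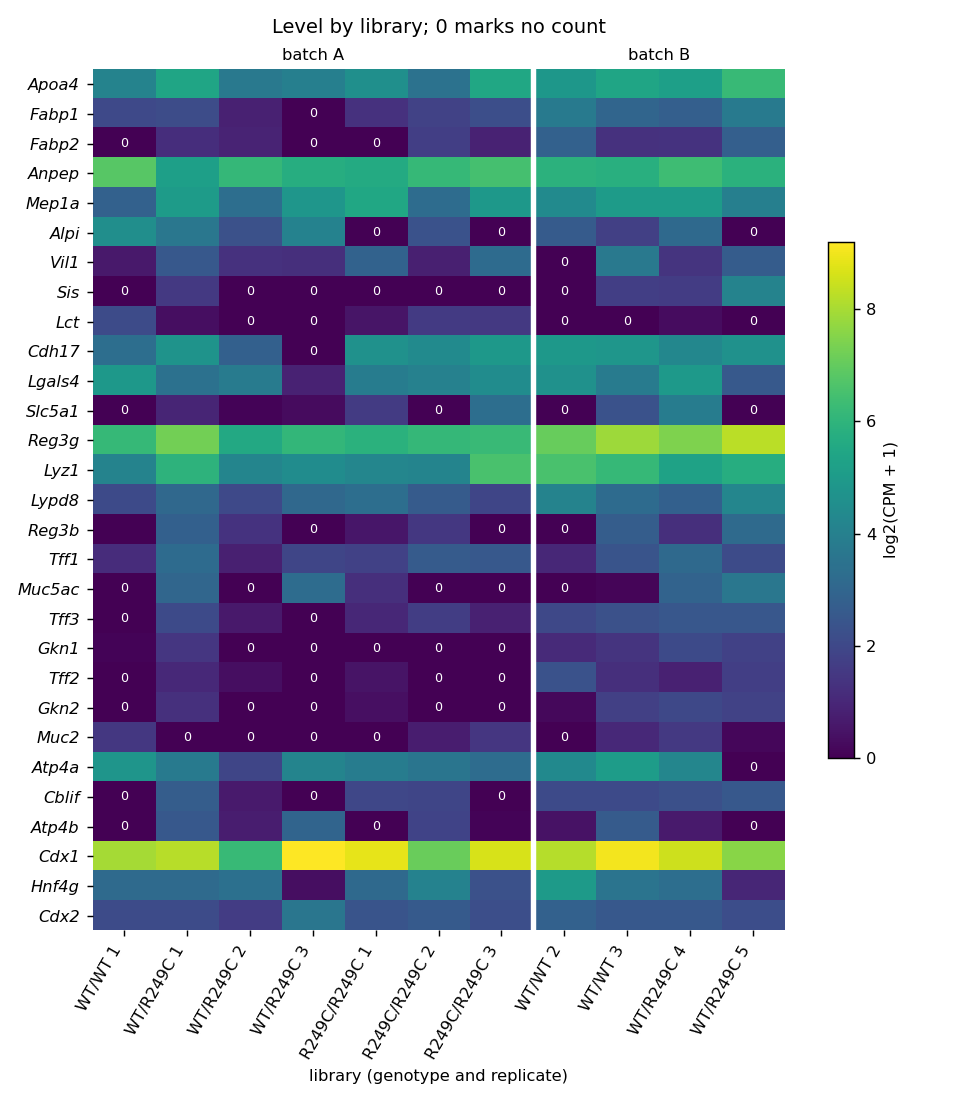
Level of each member, as log2(CPM + 1) by color, in the 7 batch A and 4 batch B libraries, with 0 printed where a library had no count. Cdx1, Reg3g and Anpep are bright throughout, Gkn1, Gkn2, Sis and Tff2 are mostly at 0 in batch A, and Muc5ac is bright in 4 WT/R249C libraries.

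In R249C/R249C against WT/WT no member passed the test, and neither did any gene in the table. EdgeR's quasi-likelihood test, with batch as a term and Benjamini-Hochberg adjustment at 0.05, called 0 of 29 members and 0 of 26980 genes (0%). Members at an unadjusted p under 0.05 numbered 0, against 865 genes (3.21%). By limma voom 0 genes were called, while DESeq2 called 408 genes (1.63%) and 0 members. The fitted log2 fold change was above 0 for 18 members and below 0 for 11 (51% of all genes were below 0), with a median of 0.38 beside -0.02 over all genes tested. That median was -0.47 without a batch term and 0.84 within batch A, where WT/WT 1 was the only WT/WT library. With each library left out the median ran from 0.055 (without R249C/R249C 1) to 0.94 (without WT/R249C 1). The smallest unadjusted p among the members belonged to Gkn1, with a log2 fold change of -7.05 (95% interval -14.9 to 0.84, edgeR adjusted p = 1). Slc5a1 followed at 6.76 (-3.52 to 17.05), Muc5ac at 5.30 (-3.57 to 14.2) and Alpi at -3.61 (-9.96 to 2.75). Each of the 4 genes had libraries at 0, and these intervals span many doublings. The median biological coefficient of variation was 1.45 for the members and 0.864 for all genes tested. Without R249C/R249C replicate 1, the only library of that genotype with a Muc5ac count, the Muc5ac value was -3.42.

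Gkn1 and Atp4a were the members whose R249C/R249C libraries all lay below all WT/WT libraries, 2 of 29 beside 3.94% of 36638 genes with a count, and no member lay above (2.63% of genes). With a floor of 3 counts for the 3 libraries together, Gkn1 was at least 109-fold lower in R249C/R249C, at least 66.7-fold without WT/WT 3, and at least 6.80-fold against WT/WT 1, the WT/WT library of the same batch. That library held only 7 Gkn1 counts. These bounds cover counting error and leave out the spread between libraries, and the fitted interval of Gkn1 given above included no change. Gkn1 also followed batch: it was at 1.15 to 3.17 CPM in the 4 batch B libraries, while batch A, which held all R249C/R249C libraries, had counts only in WT/WT 1 (0.0663 CPM) and WT/R249C 1 (1.77 CPM). Sis was likewise at least 103-fold lower, yet its WT/WT counts came from WT/WT 3 of batch B alone. For both genes genotype and batch cannot be told apart among the batch B values. Atp4a had a log2 fold change of -1.31 (95% interval -5.30 to 2.67, edgeR adjusted p = 1). The groups of libraries were separate in rank for Atp4a, but the fitted difference was smaller than its error.

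In WT/R249C against WT/WT, which shares the WT/WT libraries with the comparison above, again 0 of 29 members and 0 of 26980 genes (0%) were called by edgeR, and 0 members and 940 genes (3.48%) had an unadjusted p under 0.05. DESeq2 called 276 genes (1.15%) and limma voom 0, with 0 members by either. The log2 fold change was above 0 for 17 members and below 0 for 12 (48.5% of all genes), with a median of 0.33 beside 0.02 over all genes. That median was -0.14 without a batch term, 1.01 within batch A (against WT/WT 1 alone) and 0.052 within batch B. With each library left out the median ran from 0.069 (without WT/R249C 1) to 0.58 (without WT/WT 3). Muc5ac had the smallest p, at a log2 fold change of 8.45 (95% interval -0.13 to 17.02, edgeR adjusted p = 1). Tff1 was at 1.35 (-0.86 to 3.56), Muc2 at -6.22 (-17.4 to 5.01) and Sis at 4.34 (-4.39 to 13.1). The Muc2 value rested on WT/WT 1 and was 0.99 without it. Atp4a was the only member whose WT/R249C libraries all lay below the WT/WT libraries (1.41% of 38910 genes), none lay above (0.833%), and its log2 fold change was -1.43 (-4.56 to 1.70, edgeR adjusted p = 1). Of 40154 genes with a count, 210 (0.523%) had all 8 mutant libraries below all 3 WT/WT libraries, as Atp4a did, and no member had them all above (0.227% of genes). Of 93 marker genes of other cell types and of thymic epithelium, Igkc and Cd79a of B cells, Plcb2 of tuft cells and Cd3g of thymocytes also lay lower in all mutant libraries, and Enpep of cortical epithelium higher. Their part in the Atp4a values was not tested.

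**Figure D3:**
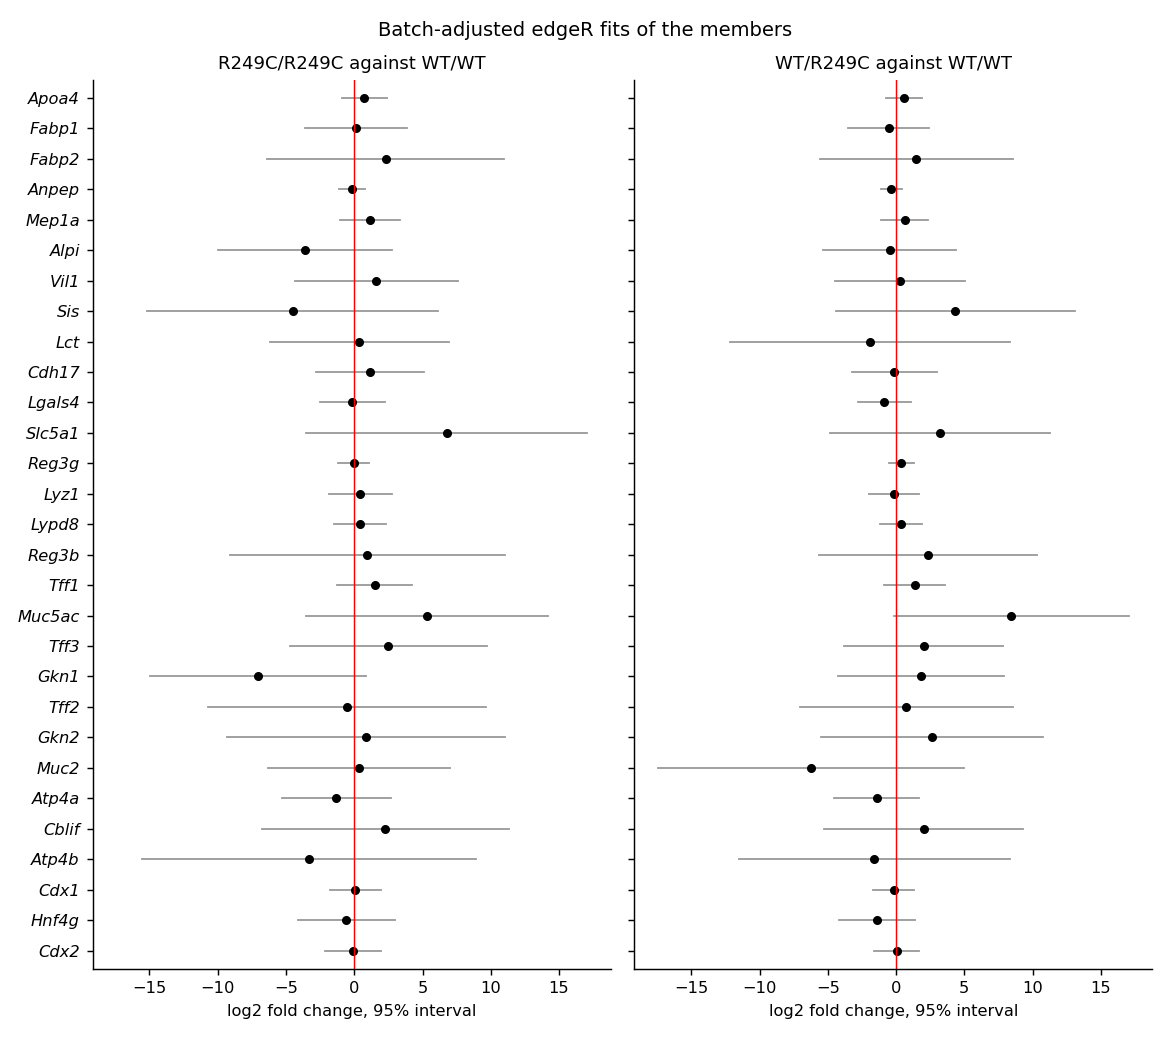
Batch-adjusted log2 fold changes of the 29 members with 95% intervals for R249C/R249C against WT/WT (left) and WT/R249C against WT/WT (right). Every interval includes 0, and those of members with libraries at 0, such as Muc5ac, Gkn1 and Muc2, are many times wider than those of Anpep and Reg3g.

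R249C/R249C was compared with WT/R249C within batch A, 3 libraries against 3. EdgeR called 0 of the 25 members tested and 0 of 23695 genes (0%), and 0 members and 256 genes (1.08%) had an unadjusted p under 0.05. DESeq2 called 33 genes (0.157%) and limma voom 0, with 0 members by either. Sis, Muc2, Gkn1 and Gkn2 were under the filter on low counts. The log2 fold change was above 0 for 16 members and below 0 for 9 (49.2% of all genes), with a median of 0.15 beside 0.01 over all genes. With each library left out that median ran from -0.30 (without WT/R249C 2) to 0.96 (without WT/R249C 1). The smallest p belonged to Lct, at 3.86 (95% interval -1.88 to 9.61, edgeR adjusted p = 1), followed by Anpep at 0.45 (-0.35 to 1.26), Slc5a1 at 3.19 (-2.69 to 9.06) and Alpi at -2.92 (-9.18 to 3.34). Lct and Lgals4 were higher in all 3 R249C/R249C libraries than in the 3 batch A WT/R249C libraries (2.37% of 37180 genes), and no member was lower in all (4.74%). The values of both genes are given above. For Lgals4 the log2 fold change was 1.05 (-1.29 to 3.39, edgeR adjusted p = 1). Over all 5 WT/R249C libraries Lgals4 overlapped, since WT/R249C 4 of batch B was at 30.1 CPM. Lct was at 0.232 and 0 CPM in WT/R249C 4 and 5, and no share of all genes was computed over these 5 libraries. Its nearest values were low, 0.281 CPM in WT/R249C 1 and 0.436 CPM in R249C/R249C 1, and WT/WT 1 was highest at 3.27 CPM. For the 4 members under the filter, exact two-sided permutation over 3 against 5 libraries of both batches, with batch ignored, which allows no p below 0.0179, gave p = 0.357 for Sis, Gkn1 and Gkn2 and p = 0.571 for Muc2 (adjusted over the 4 tests, 0.476 and 0.571).

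**Figure D4:**
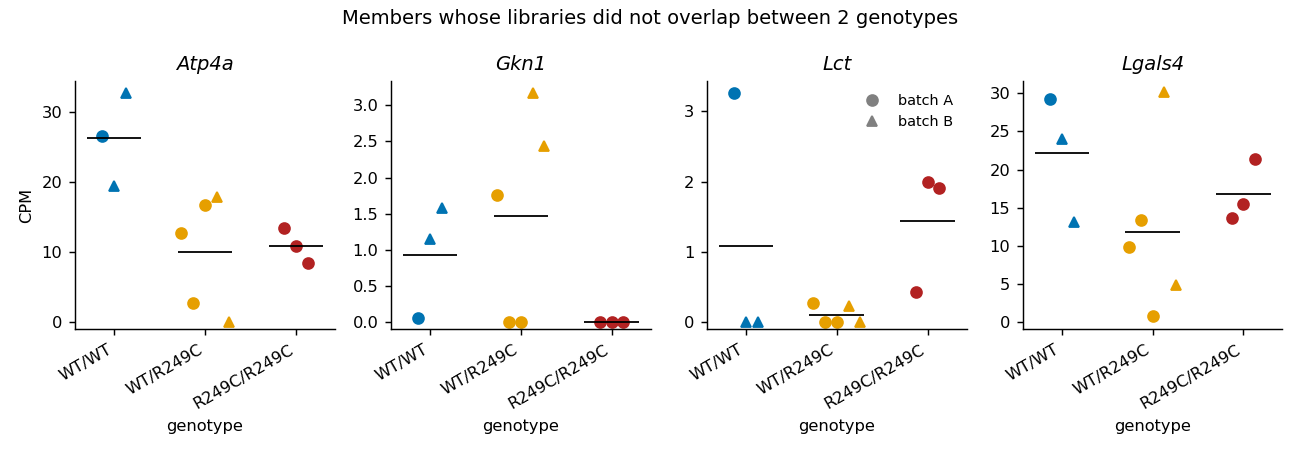
CPM of Atp4a, Gkn1, Lct and Lgals4 in each library by genotype, with a bar at the genotype mean and marker shape for batch. Atp4a is below 18 CPM in all 8 mutant libraries and at 19.4 CPM or more in WT/WT. Gkn1 is at 0 in R249C/R249C. Among the batch A circles, Lct and Lgals4 are higher in R249C/R249C than in WT/R249C. Lct is highest in WT/WT 1.

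Most members had higher values in batch B than in batch A. The deposited names of all batch A libraries carry the word trimmed, which those of batch B lack, and a different lane code. The part of read processing and lane in the batch difference was not tested. The batch term of the fit was above 0 for 24 of 29 members, against 49.2% of all genes tested, with a median log2 difference of 1.28 against -0.01. No batch difference passed adjustment for any gene (0 of 26980, with 966 genes and 1 member at an unadjusted p under 0.05). The 1 member was Reg3g, with a batch term of 1.37 on the log2 scale (edgeR adjusted p = 1), at 132 to 301 CPM in batch B and 45.8 to 151 CPM in batch A. Fabp1 was the member that did not overlap between batches (0.209% of 40154 genes were higher in all batch B libraries, 0.169% lower), at 5.90 to 12.6 CPM in the 4 batch B libraries and 0 to 3.60 CPM in the 7 batch A libraries. Tff3 was at 2.98 to 4.65 CPM in batch B and 0 to 3.24 CPM in batch A, and Cblif at 3.18 to 4.82 and 0 to 5.63 CPM. Both were present in all batch B libraries but only in 5 and 4 of the batch A libraries. So were Gkn1 and Gkn2 (2 of 7 in batch A), Tff2 (3), Fabp2 (4), and Fabp1 and Cdh17 (6). Vil1 and Atp4a went the other way, present in all 7 batch A libraries and 3 of batch B. The share of all genes with such a pattern was not computed. The 5 members with a batch term below 0 were Anpep (-0.12), Atp4a (-0.16), Alpi (-1.80), Lct (-2.31) and Atp4b (-2.33). A difference of the WT/R249C effect between batches, tested as an interaction, was called for 0 of 29 members and 0 of 25519 genes, and the smallest adjusted p of a member was 0.983. In batch A that effect had WT/WT 1 alone as its reference. In batch B it rested on WT/R249C 4 and 5, whose labels are contested. The interaction test therefore does not show that the batches agreed.

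Cdx1 and Aire mRNA were high and low in the same libraries. On log2(CPM + 1) over 11 libraries Pearson's r was 0.917 (permutation p = 1.30e-04, adjusted p = 0.00754) and Spearman's rho 0.891 (permutation p = 4.30e-04, adjusted p = 0.0249). The adjustment covered 58 relations, each of the 29 members against Aire and against the library total, and they were computed after the levels had been seen. Without WT/R249C 2 and WT/WT 1, the 2 libraries farthest from the median of Aire, r was 0.873. Within the 7 libraries of batch A it was 0.925 (exact permutation p = 0.00298), and the 4 libraries of batch B were too few for a value. Mep1a had an r of 0.846 (permutation p = 0.00111, adjusted p = 0.0322), 0.818 without those libraries and 0.845 within batch A (exact permutation p = 0.0319), but its rho of 0.682 did not pass (permutation p = 0.0252, adjusted p = 0.388). Cdx2 had an r of 0.482 (permutation p = 0.136, adjusted p = 0.607). The median r of the members with Aire was 0.20, beside 0.01 over 18593 genes at a mean of 1 CPM or more. The sets are unlike, since 5 of the members averaged under 1 CPM. The r of Cdx1 was higher than that of 99.8% of the 18593 genes. No member's relation to the library total passed adjustment. Summed mature medullary markers, Aire among them, ran from 8749 CPM in WT/WT 1 and 8927 CPM in WT/R249C 2 to 12552 CPM in R249C/R249C 3, and their part in the relation was not tested.

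**Figure D5:**
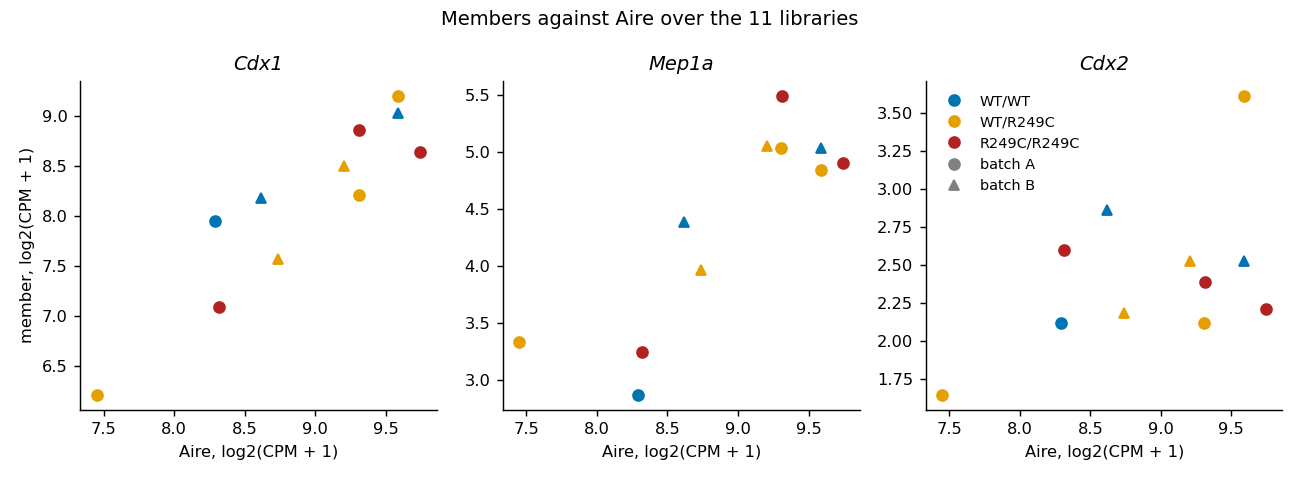
Cdx1, Mep1a and Cdx2 against Aire, both axes as log2(CPM + 1), 1 point per library, color for genotype and marker shape for batch. Cdx1 climbs with Aire from WT/R249C 2 at the lower left, with r of 0.917, while Cdx2 shows no such course apart from WT/R249C 3 at 11.2 CPM.

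Other gut genes were listed as regulators, enterocyte genes, goblet and Paneth genes, and stomach genes. Of 72 listed genes 65 were tested against WT/WT and 57 between the mutant genotypes, and edgeR called 0 in each comparison, in either direction. DESeq2 called 1, Mucl3, a mucin-like gene, in R249C/R249C against WT/WT, where its counts came from WT/WT 3 alone (2.33 CPM). Their median log2 fold changes were 0.08 in R249C/R249C and 0.15 in WT/R249C against WT/WT, and 0.06 between the mutant genotypes. Elf3, an epithelial differentiation factor, averaged 68.5 ± 36.8, 92.3 ± 34.3 and 98.7 ± 15.5 CPM (SD; WT/WT, n = 3, WT/R249C, n = 5, and R249C/R249C, n = 3). Fcgbp, a goblet cell mucus protein, averaged 467 ± 240, 507 ± 98.9 and 542 ± 262 CPM, and Itln1, the lectin intelectin, 54.8 ± 24.8, 43.6 ± 19.1 and 46.3 ± 18.2 CPM. Hdc, the histamine-forming enzyme of gastric enterochromaffin-like cells, averaged 570 ± 425, 573 ± 243 and 624 ± 286 CPM, and the mucin Muc1 55.9 ± 41.4, 62.2 ± 18.9 and 68.6 ± 25.4 CPM. Krt20, a keratin of differentiated enterocytes, averaged 43.6 ± 17.2, 52.2 ± 38.4 and 33.1 ± 7.92 CPM, and the actin bundler Espn 41.1 ± 17.6, 31.8 ± 12.1 and 35.8 ± 8.13 CPM. In all 7 genes the libraries of the 3 genotypes overlapped in CPM, and these means take no account of batch.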

How the data were processed

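RNA-seq of sorted thymic epithelial cells was analysed in 11 libraries. The authors deposited raw counts, in whole numbers, for each gene in each library. The submitters' processing notes name FastQC, HISAT2, StringTie and the mouse build mm39 and give no versions. How reads were tallied into counts, and on which annotation, was not given in the sources used here. Members were matched by Ensembl identifier through GENCODE M21 names, and 52073 of 56691 genes had a symbol. Lengths, shared 31-base words and promoters come from the older GRCm38 annotation. The members and lists were chosen with earlier results of these data known.

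CPM were counts over library totals (60560348 to 182319976). Reads carry no molecular identifiers, so the floor of 3 counts covers counting error only. Differences were tested on the whole table in R 4.3.3 with edgeR 4.0.16 (quasi-likelihood test, robust fit, TMM scaling, filterByExpr), two-sided, Benjamini-Hochberg adjusted, threshold 0.05. Both mutant genotypes were compared with WT/WT in 1 fit of 11 libraries with batch as a term, and R249C/R249C with WT/R249C in batch A. The SE of a fold change was taken from the fit's F statistic, and 95% intervals used its degrees of freedom. DESeq2 1.42.0, limma 3.58.1 (voom with quality weights), other scalings, no filter, replicate block, batch and contested-label settings and leaving out each library were alternatives. In counts simulated at the means and fitted spread of the genes tested, edgeR called 12 of 66 8-fold changes in each comparison. Of 67 4-fold changes it called 2, 8 and 3 (R249C/R249C and WT/R249C against WT/WT, R249C/R249C against WT/R249C). That 0 members were called thus does not show equal levels. Correlations used log2(CPM + 1) and 100000 permutations, or all of them for batch A.

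Values in full are given for the 2 members of highest mean per role, the 4 of smallest p per comparison and those whose genotypes did not overlap. Of the other gut genes the 2 of highest mean per list are named, except 1 that is not reported here. Replicate numbers of the titles did not pair the libraries: deviations of same-numbered libraries correlated between -0.13 and 0.15.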

Additional observations from a re-analysis of the deposited data

Results flagged for a closer look

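In WT/R249C, the 1 group large enough for the outlier test, 5 of 29 members had a library that stood apart from the other 4 (a gap to the next library over the range above the critical value for 5 libraries). Of the 36605 genes with a count in WT/R249C, 33.4% had such a library, so the share among the members was not above that of all genes. The 1 in 20 that chance gives holds for normally distributed values, which these sparse counts are not. Sis was at 16.2 CPM in WT/R249C 5 against 2.14 CPM in the next library, and Fabp2 was at 5.88 CPM in the same library against 1.52 CPM. Slc5a1 was at 13.5 CPM in WT/R249C 4 against 0.928 CPM, and Muc2 was at 1.90 CPM there against 0.108 CPM. Cdx2 was at 11.2 CPM in WT/R249C 3, the smallest library, against 4.75 CPM. WT/R249C 4 and 5 are the batch B libraries with contested genotype labels. The part of label and batch in these values was not tested.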

How the results depend on the processing

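EdgeR called 0 genes and 0 members under every setting tried, including the replicate block and each library left out. Limma voom, run on the main design of each comparison, also called 0 genes, while DESeq2 called 408, 276 and 33 genes (R249C/R249C and WT/R249C against WT/WT, R249C/R249C against WT/R249C) and 0 members. With the replicate block the member medians were 2.26, 1.53 and 0.38, and 3 of 9 libraries correlated best with their own number. Against WT/WT these blocks, by title number, joined WT/WT 2 and 3 of batch B to mutant libraries of batch A. The sign changes below all concern values that did not pass the test. Without a batch term the member medians were -0.47 and -0.14 against WT/WT. Without each replicate in turn the median of R249C/R249C against WT/R249C ran from -0.30 to 0.96.

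For R249C/R249C against WT/WT, no batch term gave -0.12 for Apoa4, -0.10 for Cblif, -0.018 for Cdx1, -1.53 for Fabp1 and -0.47 for Lyz1, library totals -0.0016 for Cdx1, limma voom 0.076 for Anpep, 0.20 for Lgals4 and -0.29 for Lyz1, and the replicate block 0.79 for Hnf4g and 0.48 for Reg3g. Batch A alone, with WT/WT 1 as its only WT/WT library, gave -0.29 for Fabp1 and 0.22 for Hnf4g. Leaving the contested libraries out gave -0.29 and 0.21 for these, and counting them as R249C/R249C gave -0.12 for Cdx1, -0.17 for Fabp1, -0.032 for Lyz1 and 0.19 for Reg3g. Without each replicate the values ran from -0.34 to 0.81 for Anpep, -0.30 to 0.47 for Cdx1, -0.19 to 0.79 for Fabp1, -1.42 to 0.0070 for Hnf4g, -0.82 to 1.06 for Lgals4, -0.82 to 0.94 for Lyz1, -3.42 to 9.12 for Muc5ac and -0.20 to 0.22 for Reg3g.

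For WT/R249C against WT/WT, batch A alone, against WT/WT 1 only, gave 0.24 for Cdh17, 0.28 for Cdx1 and 1.01 for Lyz1. Leaving the contested libraries out gave 0.23, 0.28 and 1.01 for these, and the replicate block 0.77, 0.49 and 1.23. Batch B alone gave 0.31 for Anpep, -0.091 for Mep1a and 0.98 for Muc2, and limma voom 0.0055 for Muc2. Without each replicate the values ran from -0.60 to 0.32 for Anpep, -0.88 to 0.075 for Cdh17, -0.50 to 0.11 for Cdx1, -0.85 to 0.20 for Lyz1, -0.086 to 1.13 for Mep1a and -8.29 to 0.99 for Muc2.

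For R249C/R249C against WT/R249C, limma voom gave -0.066 for Apoa4 and -0.25 for Lyz1, and Cblif was at 0.26 with all 11 libraries and 0.58 with the replicate block. Without each replicate the values ran from -0.43 to 1.00 for Apoa4, -0.35 to 0.48 for Atp4a, -0.74 to 2.70 for Cblif, -0.31 to 0.83 for Cdx1, -0.90 to 1.22 for Lyz1, -0.25 to 0.75 for Mep1a, -0.69 to 0.32 for Reg3g and -0.40 to 1.33 for Tff1. The cause of these changes was not tested. Of 929 alternative fold changes of single members 844 kept their sign, among them all of Atp4a against WT/WT. For Atp4a that follows largely from its mutant libraries all lying below WT/WT, so it adds no support, and its difference did not pass the test.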
